A study of Arabidopsis thaliana with 40 samples.

Results

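The aquaporins are the membrane channels that let water, and in some subfamilies small uncharged solutes, cross plant membranes. Here they were followed through a table of expression in sorted root cells of *Arabidopsis thaliana*. The members were chosen by locus: 35 loci, comprising 13 PIP, 10 TIP, 9 NIP and 3 SIP genes, were looked up among the 32678 *Arabidopsis* loci of the table, and all 35 were found. The rule used gene family alone and no level of expression, although the family was picked with earlier results of these data known. Isoforms are written with a hyphen, so that PIP2-2 is the gene usually printed as PIP2 isoform 2.

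The study sorted quiescent center (QC) cells, the rarely dividing organizing cells of the root stem cell niche. Plants of the Col-0 background that carried WOX5:GFP, in which the promoter of the QC gene *WOX5* drives green fluorescent protein, were harvested at 5 days after stratification. Their roots were digested to free the cells, and GFP-positive cells were sorted into buffer and amplified by CEL-Seq, a method that barcodes poly(A) RNA of each cell near its 3' end and amplifies it by in vitro transcription. All 40 samples had this same genotype, age and handling, no plant was named for any of them, and there was therefore 1 group and no control.

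An aquaporin has a pore built from membrane-spanning helices and a pair of short loops that dip into the membrane from either side. Each loop usually carries the amino acids asparagine, proline and alanine (NPA), and the 2 NPA boxes meet in the pore. The plasma membrane intrinsic proteins (PIP) carry water into and out of the cell, the tonoplast intrinsic proteins (TIP) sit mostly in the vacuolar membrane, the nodulin 26-like proteins (NIP) pass boric acid, glycerol, lactic acid or metalloids as well as water, and the small basic proteins (SIP) lie in the endoplasmic reticulum. In roots, PIP and TIP channels are known for their part in water uptake and in the swelling of cells as they elongate.

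Counts were recovered from the log2 values for 39 of the 40 samples, and 1 sample was not analysed here. The total over *Arabidopsis* loci ranged from 57655 in QC cell 4 through a median of 2096738 to 7431708 in QC cell 22. When the profiles were put in order of depth, 0 values at any locus fell in the next deeper profile over 38 steps, so the counts of a profile were contained in those of every deeper one. For this reason the 39 profiles were treated as 1 nested sample, values over profiles are descriptions, and no test between cells was made. Levels below are CPM (counts divided by the total over *Arabidopsis* loci, times 1e+06) in the deepest profile, QC cell 22, with an exact Clopper-Pearson 95% interval that covers counting error only. For a second description, the shallowest profile and the 38 successive differences were taken as 39 disjoint sets of counts, with totals between 12920 and 1228427. Of 5 QC markers *WOX5* (10.6 CPM), *SCR* (28.5 CPM) and *AGL42* (2.96 CPM) were above 0, while *PLT1*, *PLT2* and the GFP row were listed at 0, so the QC label rested on 3 of its 5 markers at low levels. Of 9 markers of other root tissues 5 were above 0, with a summed level of 67.8 CPM and the stele gene *WOL* leading at 33.5 CPM, and *COBL9*, *CASP1*, *CO2* and *SMB* were listed at 0. The part of such other cells in the aquaporin levels was not tested.

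The boxes that define the family differed between subfamilies, and the DNA that encodes them is shown because it separates the water channels that led the counts from the members with other boxes. In RefSeq models on TAIR10.1, 27 of the 35 loci encoded NPA in both boxes. The boxes lay 121 residues apart in every PIP, 113 to 114 apart in the TIPs, 111 to 119 apart in the NIPs and 111 to 116 apart in the SIPs. The lines below give reference sequence, 5′ to 3′ on the coding strand, with the 3 codons of the box in capitals and 21 bases on either side. The second box of PIP2-2 lies at chr2:15613875-15613925 on the minus strand. Both boxes of TIP2-1 lie on the plus strand at chr3:5505862-5505912 and chr3:5506603-5506653. Those of NIP5-1 lie on the minus strand at chr4:6432348-6432398 and chr4:6431674-6431724. The second box of NIP1-2 lies at chr4:10367961-10368011 on the plus strand. The first boxes of the SIPs are on the minus strand, at chr3:1073795-1073845 for SIP1-1, chr5:6056165-6056215 for SIP1-2 and chr3:21079411-21079461 for SIP2-1.
PIP2-2 second box (NPA): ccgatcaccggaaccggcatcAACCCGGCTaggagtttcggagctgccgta
TIP2-1 first box (NPA): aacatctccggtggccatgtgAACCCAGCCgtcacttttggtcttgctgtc
TIP2-1 second box (NPA): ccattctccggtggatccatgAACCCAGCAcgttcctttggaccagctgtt
NIP5-1 first box (NPS): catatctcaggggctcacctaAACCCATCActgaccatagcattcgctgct
NIP5-1 second box (NPV): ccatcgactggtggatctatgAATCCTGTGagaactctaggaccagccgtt
NIP1-2 second box (NPG): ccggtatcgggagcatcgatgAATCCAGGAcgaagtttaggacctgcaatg
SIP1-1 first box (NPT): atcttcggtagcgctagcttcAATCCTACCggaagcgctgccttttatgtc
SIP1-2 first box (NPC): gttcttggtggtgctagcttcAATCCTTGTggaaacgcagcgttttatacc
SIP2-1 first box (NPL): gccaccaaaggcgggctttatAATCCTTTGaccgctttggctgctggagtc
In these lines NIP5-1 departs from alanine in both boxes, NIP1-2 has glycine in its second, and each SIP has another residue in its first. The 27 loci with 2 NPA boxes, of which 20 were above 0, held 98.3% of the aquaporin counts. The 8 loci with another box, of which 6 were above 0, held 1.69%.

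As a family the aquaporins were among the abundant transcripts of the profile. Together they took 93301 counts, or 12554 CPM (12475 to 12635), which was 1.26% of all counts at *Arabidopsis* loci. Of the 35 loci 26 were above 0, or 74.3%, against 51.3% of all loci and 60.3% of protein-coding loci. In every one of the 39 profiles 17 members were above 0, or 48.6%, against 15.3% of all loci. A level of at least 100 CPM was reached by 11 members, or 31.4%, against 5.41% of all loci. A level of at least 1000 CPM was reached by 6 members, or 17.1%, against 0.291% of all loci. The median log2(CPM + 1) was 5.25 over the 35 members, 0.74 over all loci and 1.83 over protein-coding loci. The list was set by gene family, and the difference from other loci was not tested. The 6 members past 1000 CPM were among the 95 loci in all that reached this level.

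The counts were concentrated in a few plasma membrane and vacuolar channels. The leading 3 members, PIP2-2, PIP2-1 and TIP2-1, held 48.6% of the aquaporin counts, the leading 6 held 80.7% and the leading 10 held 94.9%. Of these 10, 8 were PIPs and 2 were TIPs. When levels were divided by coding length, 9 of the 10 stayed in the leading 10. Because CEL-Seq reads near the 3' end, counts need not scale with coding length, and values per kb are descriptions only.

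**Figure D1:**
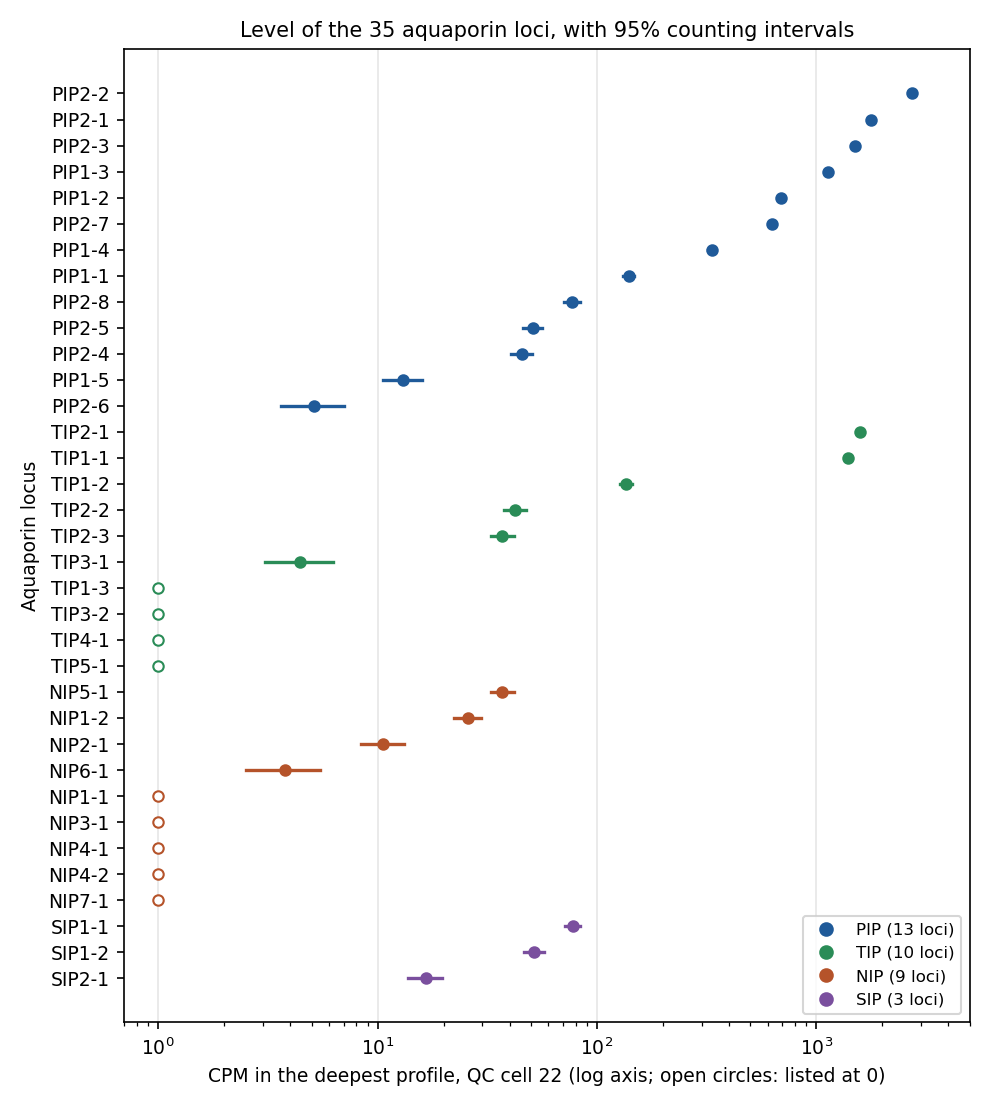
CPM of each of the 35 aquaporin loci in the deepest profile (log axis), grouped by subfamily, with horizontal bars for the exact 95% counting interval and open circles for the 9 loci listed at 0. The 6 loci past 1000 CPM are 4 PIPs and 2 TIPs, whereas no NIP or SIP reaches 100 CPM.

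The PIP subfamily carried most of the signal. All 13 PIPs were above 0, 10 of them in every profile, and together they reached 9138 CPM (9069 to 9206), which was 72.8% (72.5 to 73.1) of the aquaporin counts. Over the 39 disjoint sets the PIP share was 72.3% ± 2.04 (SD, n = 39 sets). It ranged from 63.9%, in the smallest set with 147 aquaporin counts, to 76.2%. In that smallest set NIP5-1 was first above 0, with 8 counts, and the NIP share was 5.44%. Per kb of coding length the PIP share was 70.2% in the deepest profile, since PIP coding sequences (837 to 876 bases) are longer than those of the TIPs (750 to 807 bases). PIP levels ranged from 5.11 CPM in PIP2-6 to 2737 CPM in PIP2-2.

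Within the PIPs, the PIP2 group outweighed the PIP1 group. PIP2 proteins form active water channels on their own when expressed in frog oocytes, whereas PIP1 proteins are mostly weak there and, as shown in maize, reach the plasma membrane in complexes with PIP2 proteins. The 8 PIP2 genes held 50778 counts, against 17130 for the 5 PIP1 genes, a ratio of 2.96. The PIP1 share of PIP counts was 25.2% (24.9 to 25.6), and per kb of coding length it was 25.2% as well. PIP2-2, PIP2-1 and PIP2-3 together made up 65.9% of the PIP counts.

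PIP2-2 (AT2G37170, chr2:15613402-15614916, minus strand) was the leading aquaporin. It encodes a root water channel whose loss lowers osmotic water transport in roots. Its level was 2737 CPM (2699 to 2775), from 20339 counts, and it ranked 21 among all loci. Over the nested profiles its CPM had a lowest value of 2728, a median of 2755 and a highest value of 3781, which came from the shallowest profile. Over the disjoint sets it averaged 2711 ± 275 CPM (SD, n = 39 sets). It was the highest aquaporin in every nested profile.

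PIP2-1 (AT3G53420, chr3:19803473-19805730, minus strand) came next. It encodes a water channel of root and guard cells that is regulated by phosphorylation and also passes hydrogen peroxide. Its level was 1782 CPM (1752 to 1813), with 1782, 1829 and 2220 CPM as the lowest, median and highest nested value. Over the disjoint sets it averaged 1796 ± 194 CPM (SD, n = 39 sets), and PIP2-2 was higher in 39 of 39 sets. The ratio of PIP2-2 to PIP2-1 was 1.54 (1.503 to 1.57).

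PIP2-3 (AT2G37180, chr2:15617635-15619155, plus strand), a gene known for its response to drying and also named *RD28*, was next among the PIPs. Its level was 1505 CPM (1477 to 1533), with 1505, 1522 and 2168 CPM as the lowest, median and highest nested value. PIP2-7, a plasma membrane channel whose delivery involves the syntaxins SYP121 and SYP61, had 630 CPM (612 to 648), with nested values of 607, 647 and 759 CPM. PIP2-3 thus came close to PIP2-1 in the shallowest profile, at 2168 against 2220 CPM, and lay further below it in the deepest.

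The other PIP2 genes were far lower. PIP2-8, the close relative of PIP2-7, had 77.2 CPM (71.0 to 83.8), with nested values of 74.4, 83.7 and 131 CPM. PIP2-5 had 50.9 CPM, PIP2-4 had 45.5 CPM, and PIP2-6 had 5.11 CPM. The intervals of the ratio did not separate PIP2-5 from PIP2-4 (1.12, 0.963 to 1.30).

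Among the PIP1 genes PIP1-3 led. Its level was 1130 CPM (1106 to 1154), with nested values of 1120, 1132 and 1370 CPM and a mean of 1108 ± 168 CPM over the sets (SD, n = 39 sets). PIP1-2, a channel with a part in the hydraulic conductivity of the rosette, had 690 CPM (671 to 709), with nested values of 676, 694 and 833 CPM. PIP1-3 was thus higher than PIP1-2 in the deepest profile by 1.64 times (1.58 to 1.69), and in 38 of 39 sets. PIP1-4 had 333 CPM (320 to 346), with nested values of 332, 349 and 451 CPM. PIP1-1 had 139 CPM (131 to 148), with nested values of 95.9, 148 and 182 CPM. PIP1-5 closed the group at 13.1 CPM (10.6 to 15.9), with a nested median of 12.7 CPM, a highest value of 14.3 CPM and 4 shallow profiles listed at 0. Each PIP1 gene stood apart from the next in this order, with intervals of the ratio that left out 1.

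**Figure D2:**
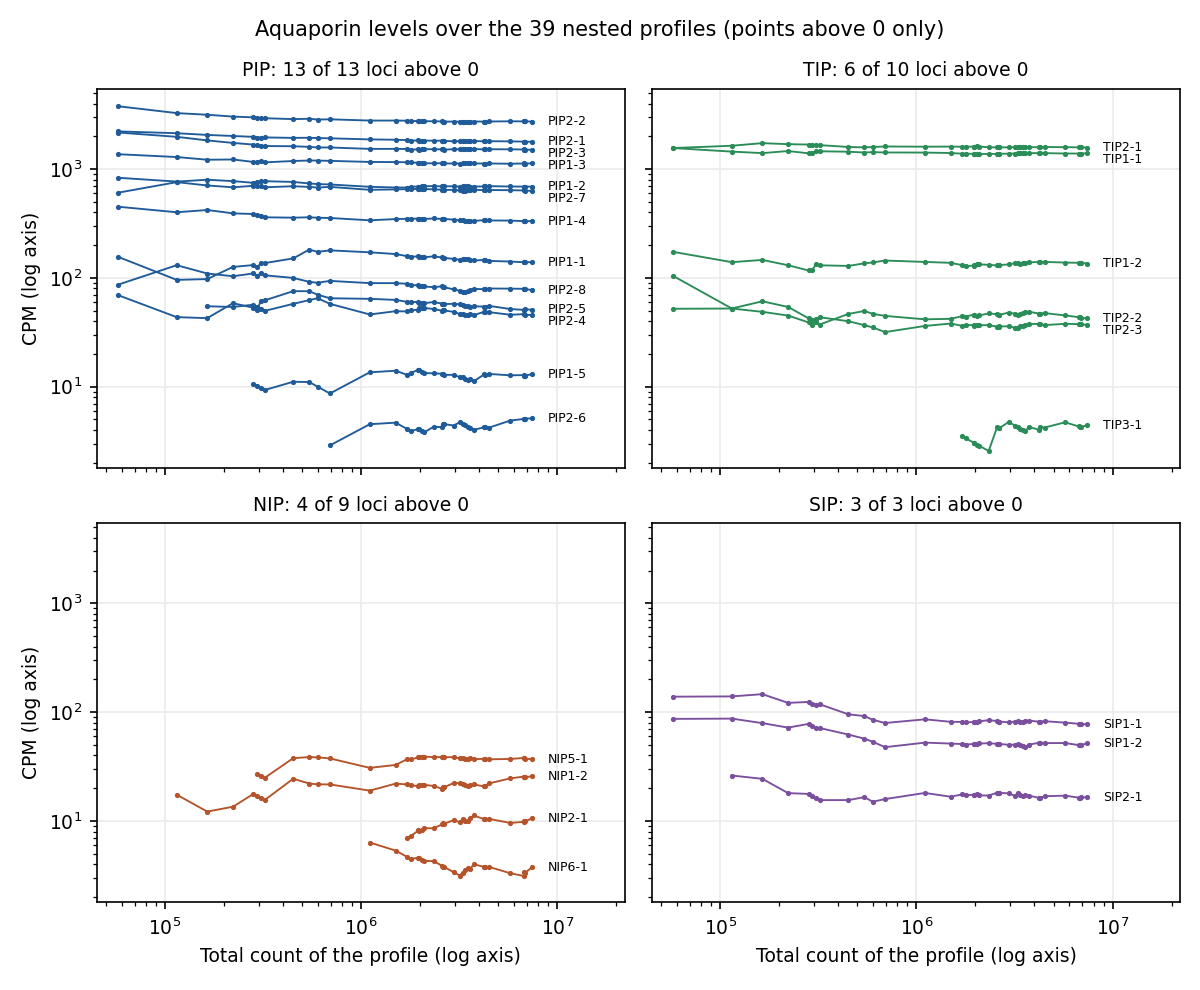
CPM of the 26 aquaporins above 0 against the total count of the profile, both on log axes, with a panel for each subfamily and a line for each locus over the 39 nested profiles, drawn only where a locus is above 0. Most lines that begin in the shallowest profile, among PIPs, TIPs and SIPs, start higher than they end, such as PIP2-2 at 3781 and 2737 CPM. TIP2-1 and PIP2-7 start lower than they end. Lines that begin further right are members first above 0 in deeper profiles, such as TIP3-1 and NIP2-1 at a total of 1708924.

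The TIP subfamily followed with 3194 CPM (3153 to 3235), or 25.4% (25.2 to 25.7) of the aquaporin counts. Of its 10 genes 6 were above 0 and 5 were above 0 in every profile. Over the disjoint sets its share was 25.9% ± 1.84 (SD, n = 39 sets), and per kb of coding length it was 27.9%. A pair of genes dominated it, since TIP2-1 and TIP1-1 made up 93.1% of the TIP counts.

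TIP2-1 (AT3G16240, chr3:5505360-5507050, plus strand) encodes delta-TIP, a vacuolar channel for water and ammonia. Its level was 1578 CPM (1550 to 1607), with 1561, 1594 and 1732 CPM as the lowest, median and highest nested value. Over the disjoint sets it averaged 1583 ± 142 CPM (SD, n = 39 sets). By CPM it stood behind PIP2-2 and PIP2-1. Per kb of coding length, as a description only, it was the second of all aquaporins at 2096 CPM per kb. PIP2-2 stood before it at 3190 CPM per kb and PIP2-1 just after it at 2062 CPM per kb.

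TIP1-1 (AT2G36830, chr2:15445294-15446621, plus strand) encodes gamma-TIP, a vacuolar channel for water and urea that is widespread in vegetative tissue. Its level was 1396 CPM (1369 to 1423), with 1375, 1396 and 1561 CPM as the lowest, median and highest nested value. TIP2-1 exceeded it by 1.13 times (1.101 to 1.16) in the deepest profile and was higher in 30 of 39 sets, while the shallowest profile held 90 counts of each. The order of these genes was thus set by a margin that the sets did not always show.

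The remaining TIPs were lower or at 0. TIP1-2, the paralog of TIP1-1, had 136 CPM (127 to 144). TIP2-2 had 42.4 CPM (37.8 to 47.3), with nested values of 37.3, 45.7 and 52.3 CPM. TIP2-3, which passes ammonia in yeast assays, had 37.0 CPM (32.8 to 41.6), with nested values of 31.8, 36.9 and 104.1 CPM, the highest of these from 6 counts in the shallowest profile. These 3 genes were above 0 in every profile. TIP3-1, a channel of the storage vacuoles of seeds, had 33 counts, or 4.44 CPM (3.06 to 6.24). Its seed paralog TIP3-2, the pollen genes TIP1-3 and TIP5-1, and TIP4-1 were listed at 0 in all 39 profiles.

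The NIPs contributed little. Of 9 genes 4 were above 0, and none of them in every profile. Their sum was 77.2 CPM (71.0 to 83.8), or 0.615% (0.566 to 0.667) of the aquaporin counts. NIP5-1 (AT4G10380, chr4:6431161-6435396, minus strand), the boric acid channel that roots use for boron uptake and whose altered boxes are printed above, led with 37.0 CPM (32.8 to 41.6), or 47.9% of NIP counts. NIP1-2, linked to the uptake of aluminium malate, had 25.8 CPM (22.3 to 29.8). NIP2-1, a lactic acid channel induced by low oxygen, had 10.6 CPM (8.42 to 13.2). NIP6-1, a boric acid channel of shoot nodes, had 28 counts, or 3.77 CPM (2.50 to 5.45). NIP1-1 and NIP3-1, both known for arsenite transport, the pollen genes NIP4-1 and NIP4-2, and the anther boron channel NIP7-1 were listed at 0 in all 39 profiles.

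The SIPs were all above 0. Their sum was 146 CPM (137 to 155), or 1.16% (1.09 to 1.23) of the aquaporin counts, above the NIP sum although the SIPs number 3 and the NIPs 9. SIP1-1 had 77.5 CPM (71.3 to 84.1) and SIP1-2 had 51.7 CPM (46.6 to 57.1). Both were above 0 in every profile, and SIP1-1 was 1.5 times SIP1-2 (1.32 to 1.71) and higher in 29 of 39 sets. SIP2-1, the most divergent of them by sequence, had 16.6 CPM (13.8 to 19.7).

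In the deepest profile the order of all 26 members above 0 was resolved beyond counting error at the top and blurred lower down. Of 25 neighbouring pairs 14 were separated, in that the interval of their ratio left out 1. All 9 neighbour pairs among the leading 10 were separated, the narrowest being TIP2-1 over PIP2-3 at 1.05 times (1.02 to 1.08). In the shallowest profile this narrowest order was reversed, with 90 counts of TIP2-1 and 125 of PIP2-3. The place of PIP2-3 also rests on a split of reads with PIP2-2 that is uncertain, as described below. PIP1-1 and TIP1-2 were not separated (1.03, 0.941 to 1.12), nor were SIP1-1 and PIP2-8 (1.00, 0.892 to 1.13). From SIP1-2 at 51.7 CPM to NIP5-1 at 37.0 CPM, a run of 6 members, no neighbour was separated from the next. TIP2-3 and NIP5-1 had 275 counts each.

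Paralogs with nearly the same protein often had unequal counts. Among pairs with both members above 0, 15 had proteins over 90% identical, involving 10 PIPs and 2 TIPs. These pairs share members, since every pairing of the PIP1 genes is among them, and are not independent. Their ratios ranged from 1.15 to 86.5 with a median of 3.39. The 4 pairs that differed by at least 10-fold all had PIP1-5, with 97 counts, as the lower member. The interval left out 1 in 14 of the 15, and in 11 pairs the same member was higher in all 39 sets. The exception in the deepest profile was TIP2-2 and TIP2-3, 92.0% identical, with a ratio of 1.15 (0.971 to 1.35) and TIP2-2 higher in 18 of 39 sets.

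PIP1-3 and PIP1-4, whose proteins are 97.2% identical, differed by 3.39 times (3.25 to 3.55) with PIP1-3 higher in 39 of 39 sets. PIP1-2 and PIP1-1, also 97.2% identical, differed by 4.95 times (4.63 to 5.30), again in 39 of 39 sets. PIP2-7 and PIP2-8, 91.8% identical, differed by 8.16 times (7.48 to 8.91). PIP1-3 and PIP1-5, 94.8% identical, stood furthest apart at 86.5 times (70.9 to 107). The vacuolar pair TIP1-1 and TIP1-2, 85.0% identical, differed by 10.3 times. High identity of the protein thus went with ratios near 1 in some pairs and with very unequal counts in others.

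**Figure D3:**
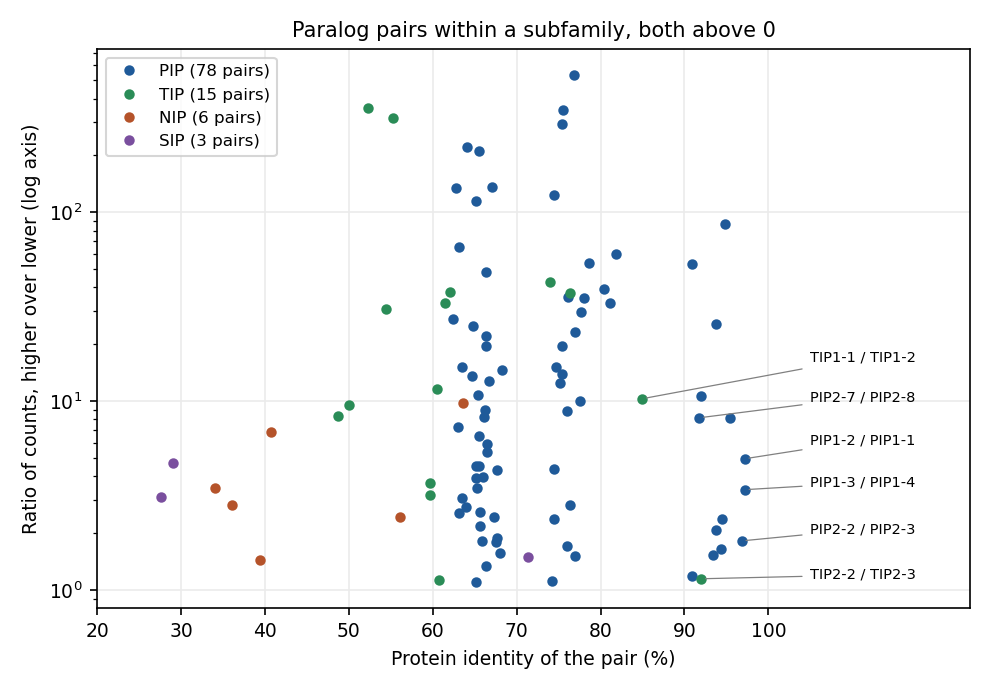
Ratio of counts, higher over lower member (log axis), against the percent identity of the proteins, for the 102 pairs of aquaporins within a subfamily that were both above 0 in the deepest profile. The 15 pairs over 90% identical spread from 1.15 to 86.5, and the labelled pairs include PIP2-2 over PIP2-3 at 1.82.

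PIP2-2 and PIP2-3 merit a closer view, because they are the pair whose reads could most easily be confused. They lie head to head on chromosome 2, on opposite strands, with 0 annotated genes and 2612 bases between the outermost ends of their annotated transcripts (the coordinates given above are those of the transcript model used). Their proteins are 96.8% identical and their coding sequences 94.8%. The last 120 coding bases are shown because a 3′ method reads near that end, with the 10 bases at which the copies differ in capitals (PIP2-2 at chr2:15613624-15613743 on the minus strand, PIP2-3 at chr2:15618818-15618937 on the plus strand).
PIP2-2: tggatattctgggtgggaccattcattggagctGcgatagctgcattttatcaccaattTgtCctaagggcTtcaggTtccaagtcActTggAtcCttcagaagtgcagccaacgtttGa
PIP2-3: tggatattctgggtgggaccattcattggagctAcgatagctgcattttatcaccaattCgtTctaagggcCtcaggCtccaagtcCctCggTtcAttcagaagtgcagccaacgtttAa
Over the last 400 bases of the transcripts, UTR included, identity was 68.1%. Of the 371 windows of 30 bases there, 35 (9.43%) of PIP2-2 and 32 (8.63%) of PIP2-3 occurred in another aquaporin, while 39.1% of the coding windows of PIP2-2 occurred in PIP2-3. Besides these genes, only NIP4-2, with 6 windows, shared any such window with another member, so 32 of the 35 loci had none. Reads with several genomic locations were counted in part for the hand-picked cells of the study, and whether this also held for the CEL-Seq cells is not stated, so the split of this pair in particular is uncertain. As counted, PIP2-2 exceeded PIP2-3 by 1.82 times (1.78 to 1.86). The ratio ranged from 1.52 to 2.33 over the disjoint sets with a median of 1.83, and PIP2-2 was higher in 39 of 39.

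The family sum varied over the sets by a small part of its level. It averaged 12609 ± 896 CPM over the disjoint sets (SD, n = 39 sets), with a lowest value of 10489, a median of 12488 and a highest value of 15419 in the shallowest profile. The shallowest profile had 4997 loci above 0, against 16780 in the deepest. Scaled to the 4997 loci above 0 in every profile, the shallowest profile reached 15419 and the deepest 14956. This scaling was added after the data were seen. With it the sets averaged 14903 ± 880 (SD, n = 39 sets) and ranged from 12451.5 to 17870.

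For most single members the spread over the sets was above that of counting alone, by varying amounts. A chi-square of the set counts against each locus's overall share, divided by its degrees of freedom, equals about 1 when counting error alone acts. Its median was 1.23 over the 17 members above 0 in every profile and 1.07 over all 4997 such loci, whose central 90% lay between 0.697 and 1.67. PIP1-1 stood highest among the members at 1.92, above that central range, followed by PIP2-3 at 1.63 and PIP2-8 at 1.52. The leading member PIP2-2 had 1.43. TIP2-1, TIP1-1, PIP1-4 and PIP1-2 lay below 1, with PIP1-2 lowest at 0.831. For the family sum the value was 3.21, and 1.63 when scaled to the loci above 0 in every profile.

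**Figure D4:**
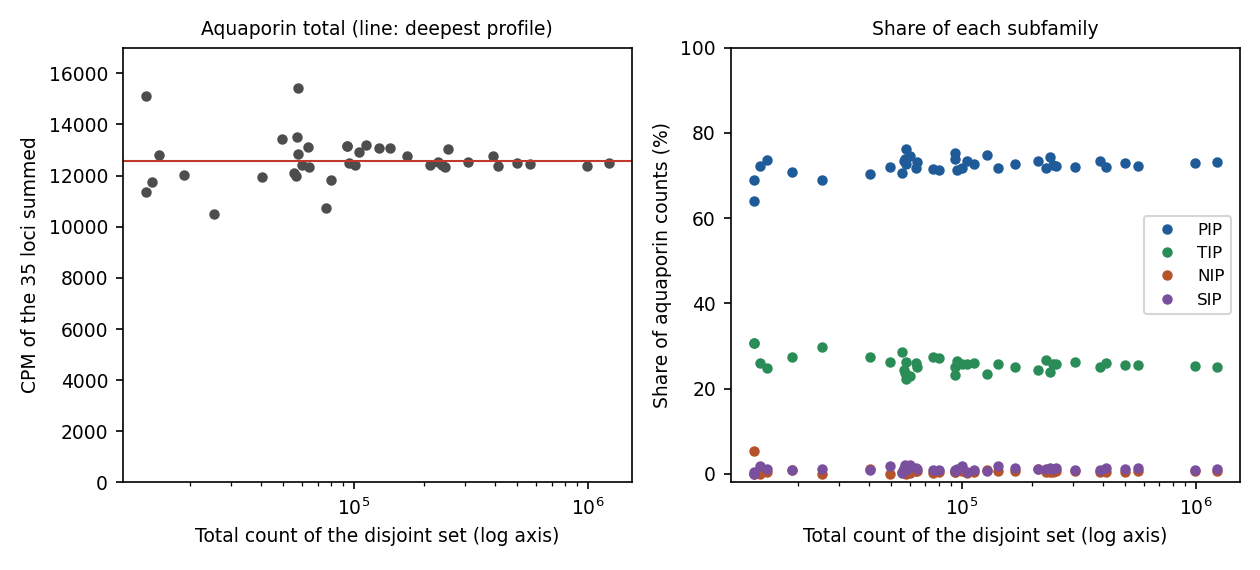
Summed CPM of the 35 aquaporins (left, line at the 12554 CPM of the deepest profile) and the share of aquaporin counts held by each subfamily (right, percent), both against the total count of each of the 39 disjoint sets on a log axis. The sums lie between 10489 and 15419 CPM with the widest scatter in small sets, and the PIP share lies between 63.9% and 76.2%, above the TIP share in every set.

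Low members came above 0 as depth rose, but not in strict order of their level. The 9 members above 0 in some profiles only were above 0 in 25 to 38 of the 39, and had at most 45.5 CPM in the deepest profile, whereas the 17 present throughout had at least 37.0 CPM. Their first counts ranged from 2 to 12, and none began with 30 counts or more. NIP5-1 was listed at 0 up to a total of 282039 counts, where 10.4 would have been expected from its share of the deepest profile, and had 8 counts in the next profile at 294959. NIP2-1 was listed at 0 up to 1497147 counts, where 15.9 were expected, and had 12 counts at 1708924. TIP3-1 appeared in that same profile with 6 counts, where 6.65 were expected just before. PIP2-6, with 38 counts in the deepest profile, was above 0 from a total of 692301, earlier than NIP2-1 with 79. TIP2-3, with the same 275 counts as NIP5-1, was above 0 in every profile. A value of 0 in this table may therefore stand for a few counts, and a locus listed at 0 is not shown to be without transcript.

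Genes that work with aquaporins were present in the same profile, with lower sums from shorter lists. All 9 genes of the proton pump list were above 0, with a sum of 1560 CPM, so the 35 aquaporins together had 8.05 times the CPM of these pump genes. The lists are unlike in length, and the median was 127 CPM over the pump genes against 37.0 CPM over the 35 aquaporins. The pumps, which energize the membranes where PIPs and TIPs reside, were led by the vacuolar ATPase subunit *VHA-A* at 527 CPM, the vacuolar pyrophosphatase *AVP1* at 259 CPM and the plasma membrane ATPase *AHA2* at 185 CPM. All 11 genes of the list of PIP partners and trafficking factors were above 0, with a median of 92.0 CPM. They were led by *RMA1* at 249 CPM, a ubiquitin ligase of the endoplasmic reticulum that lowers PIP2-1, and by the syntaxin *SYP71* at 206 CPM. *SYP121*, the syntaxin of PIP delivery, had 111 CPM, against 12.5 CPM for its paralog *SYP122*. Of the boron exporters, *BOR1*, which works with NIP5-1 in root boron transport, had 102 CPM (94.9 to 110), *BOR2* had 7.67 CPM and *BOR4* had 3 counts. All 23 genes of these 3 lists were thus above 0, against 51.3% of all loci and 60.3% of protein-coding loci. The lists were chosen with earlier results of these data known, and this difference was not tested.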

How the data were processed

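Expression in WOX5:GFP-sorted QC cells was measured by CEL-Seq in 40 samples of 1 group. The authors deposited log2 values of depth-normalized read counts plus 1 in a single table of 32771 rows, of which 32678 are *Arabidopsis* loci and 91 are spike-in RNAs. The submitters' processing notes name Bowtie2 and TAIR10. For its hand-picked cells, prepared with another protocol, the study describes summing reads over exons with ngsutils, counting a read with several genomic locations in part, dropping genes with little covered sequence, scaling to depth and taking log2. Whether these steps were used for the CEL-Seq cells is not stated, and molecular identifiers are not mentioned. Columns were matched to samples by barcode, and 1 sample had no matched column and was not analysed here.

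Whole counts were obtained from the deposited log2 values by inverting the logarithm and dividing by the step of each profile, and came out within 0.000844 of whole numbers. The smallest count above 0 was 2. CPM used the total over *Arabidopsis* loci, in which 4 ribosomal RNA loci held 13.9%. Spike-in rows, 4.97% of the counts of the deepest profile, were left out. Totals ranged from 57655 to 7431708, and intervals are Clopper-Pearson at 95%. Because the profiles were nested, no test was run.

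The members and the gene lists were chosen with earlier results of these data known. All 35 members were accounted for, and full values over profiles were given for the 10 with the highest CPM and for paralogs over 90% identical. Gene models, sequences and coordinates came from RefSeq on TAIR10.1, which matched 35 of 35 members. Box positions were found by pattern, and pairwise identity by global alignment. Alternatives covered the detection limit, depth, scaling, pseudocount, coding length and members left out. Recovery of counts, the chi-square over sets and the intervals were tested on simulated data, whereas nesting was read from the recovered counts themselves. Python 3.11.15, numpy 2.4.6, pandas 2.3.3, scipy 1.17.1, Biopython 1.88 and matplotlib 3.10.9 were used.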

Additional observations from a re-analysis of the deposited data

How the results depend on the processing

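The subfamilies kept their order by share (PIP, TIP, SIP, NIP) under per-kb levels, a 10 CPM minimum, the shallowest profile and the medians over disjoint sets. No paired analysis was possible because there was 1 group. Of 50 values under other settings 22 stayed within the tolerance (the 95% interval, 1.5 times for counts, 0.1 for log2) and 28 moved. The number of members above 0 fell to 17 in the shallowest profile and to an expected 14.4 at 10000 counts. The summed CPM was 11930 over all rows, 14579 without ribosomal RNA loci and 15419 in the shallowest profile. Per kb of coding length the PIP share was 70.2%, the TIP share 27.9% and the SIP share 1.33%. In the shallowest profile the PIP share was 76.2%, the TIP share 22.4%, the NIP share 0%, the SIP share 1.46% and the PIP1 share of PIP counts 23.9%. The medians over disjoint sets were 25.8% for TIP and 0.529% for NIP. Without PIP2-2, the leading member of the family, the PIP share was 65.2%, the TIP share 32.5%, the NIP share 0.787%, the SIP share 1.48% and the PIP1 share 36.0%. Without members over 90% identical to another, which takes out 10 of 13 PIPs, the shares were 2.95% for PIP, 90.6% for TIP, 2.25% for NIP and 4.24% for SIP, and the PIP1 share was 0%. The median log2 level was 5.55 with a pseudocount of 10 CPM, 6.00 over members above 0 and 5.46 without ribosomal RNA loci. Of 18 values for paralog ratios, added after the data were seen, 7 moved; TIP2-2 over TIP2-3 was 0.5 in the shallowest profile, from 3 and 6 counts. Some members of up to 45.5 CPM were listed at 0 in shallow profiles, among them PIP2-4 at that level in 2 profiles. Nesting leaves no replicate error for any value.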
